A study of Homo sapiens with 6 samples.

Results

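The genes of polyamine metabolism were described by name, namely SAT1 and 9 genes that make, break down or regulate the polyamines (ODC1, AMD1, SRM, SMS, SMOX, PAOX, OAZ1, OAZ2 and AZIN1). All 10 were found among the 50868 genes of the table, and 9 of them were among the 12015 genes whose FPKM (the count scaled to gene length and to the library total) averaged 1 or more over the 6 libraries. PAOX lay under that level. RNA-Seq had been performed on HCT116, a human colon cancer cell line, transfected either with pcCon, the empty control plasmid, or with pcYY2, a plasmid that overexpresses the transcription factor YY2. There were 3 samples of polyA RNA for each plasmid, the methods give a day between transfection and collection for overexpression experiments, and no further treatment is named for these samples. The 2 groups share the line and the act of transfection, so the comparison is of the plasmids in 1 line. Nothing in the labels says that the samples of a group were separate cultures, and the p-values then measure the spread between these samples, which may be technical.

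Putrescine, spermidine and spermine are small positively charged molecules that bind nucleic acids and that growing cells need. ODC1 (ornithine decarboxylase) makes putrescine, AMD1 (S-adenosylmethionine decarboxylase) provides the aminopropyl donor, and SRM and SMS (spermidine synthase and spermine synthase) add the aminopropyl groups. SAT1 (spermidine/spermine N1-acetyltransferase) acetylates spermidine and spermine, after which PAOX, a peroxisomal oxidase, can return them to shorter polyamines, while SMOX oxidizes spermine directly. Antizymes, encoded by OAZ1 and OAZ2, bind ornithine decarboxylase and direct it to the proteasome, and AZIN1, the antizyme inhibitor, takes antizyme away from it. SAT1 is also known as a target gene of p53, and much of the control of ODC1, AMD1, SAT1 and the antizymes is known to act on translation and protein turnover, which mRNA levels do not show.

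SAT1 (ENSG00000130066) lies on the plus strand of chromosome X, at chrX:23783173-23786226 in GRCh38. The 250 bases before its RefSeq start, chrX:23782923-23783172 in GRCh38.p14, are shown because SAT1 was the member whose change passed the test. They are written 5′ to 3′, and capitals mark the sequence CCAAT, found on either strand.
SAT1 upstream: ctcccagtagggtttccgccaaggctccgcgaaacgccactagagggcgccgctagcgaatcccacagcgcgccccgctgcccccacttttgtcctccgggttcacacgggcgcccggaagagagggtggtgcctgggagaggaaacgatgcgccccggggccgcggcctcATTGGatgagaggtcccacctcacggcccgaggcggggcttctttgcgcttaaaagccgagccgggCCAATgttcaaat
G and C made up 66.4% of these bases, against a median of 58% over the same stretch of all 35116 RefSeq promoter windows. The window runs from 250 bases before the start to 50 bases after it, and 7 members had 10 such windows (SAT1, ODC1, AMD1, SRM, SMS, OAZ1 and OAZ2). The study names the consensus CGCCATNTT for YY1 and YY2, where N is any base. Searched on both strands, it occurred in 1 of the 10 windows, that of OAZ1, and in 3.19% of all windows. The part CCATNTT, contained in it, occurred at the same OAZ1 site alone among the members, and in 15.6% of all windows. The OAZ1 site is shown with its neighbouring bases, on the plus strand of GRCh38.p14, with the consensus in capitals. The match itself covers chr19:2269516-2269524 and begins at base 31 counted from the RefSeq start. That start lies upstream of the one that the deposited data give for OAZ1, base 2269509.
OAZ1 site: gcggcagaggCGCCATTTTgcgaacgg
The SAT1 window held neither sequence. In a search added after the sequences were seen, it also held no CCAT on either strand, the 4 bases common to these motifs, which 9 of the 10 member windows and 78.4% of all windows held. CCAAT is a different sequence, although matches of the pair on opposite strands can share bases. The search for CCAAT was likewise not planned. CCAAT occurred in windows of 5 members, SAT1 among them, and in 34.6% of all windows. These are matches of letters in a window, and no binding was measured here. The predicted YY2 site that the study tested in the SLC7A11 promoter lies further upstream than such a window reaches. Sequence outside the windows was not searched.

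YY2, the gene on the plasmid, gave 111, 126 and 72 reads in pcCon and 488, 898 and 555 reads in pcYY2. That is 6.10, 6.90 and 4.75 CPM (the count relative to the total of its library) in pcCon and 31.8, 30.4 and 30.2 CPM in pcYY2, a log2 fold change of 2.39 (SE 0.137, edgeR quasi-likelihood test, adjusted p = 0.00107). Reads from the plasmid and from the chromosomal gene cannot be told apart. Total counts ran from 15158360 to 29572882, pcYY2 replicate 2 being the deepest, and 3 counts, taken as the floor, correspond to 0.101 to 0.198 CPM, for counting error only. Of the 7 markers of colorectal epithelium, 6 had reads well over the floor in every library, among them EPCAM at 295 to 329 CPM and CDX2, an intestinal factor, at 18.2 to 22.1 CPM, while VIL1 had at most 2 reads in any library. The summed level of the 7 was 2082 to 2167 CPM in pcCon and 2748 to 3171 CPM in pcYY2, and KRT8 and KRT19, keratins of simple epithelium, rose by 0.67 and 0.60 on the log2 scale (edgeR adjusted p = 0.0117 and 0.00209), the call of KRT8 being lost without pcCon replicate 2 (adjusted p = 0.0503) and under the replicate block, a fit with the replicate number as a further term (adjusted p = 0.0576), with a log2 fold change of 0.66 in both. The other 4 tested markers of the list were not called, with log2 fold changes of 0.10 (EPCAM), 0.22 (CDH1), 0.13 (KRT18) and -0.06 (CDX2). The leukocyte markers PTPRC and CD3E summed to 0.110 to 0.879 CPM in pcCon and 0.0653 to 2.74 CPM in pcYY2, and neither reached 3 counts in every library. Their highest counts, 69 and 12, were in pcYY2 replicate 2, as was that of the endothelial marker PECAM1 (27). COL1A1, of the fibroblast markers, stood at 24.7 to 34.5 CPM, and COL1A2 had no read in any library. The part of other cells in the results was not tested, and SAT1 is also given without pcYY2 replicate 2.

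In HCT116 cells with pcYY2, SAT1 mRNA was 34.6% lower than with pcCon, and no other member passed the test in either direction. SAT1 was thus 1 of the 9 tested members called lower at an adjusted p of 0.05 or less, where 9.37% of all 12015 tested genes were called in either direction, 4.85% lower and 4.52% higher. With 9 genes, 1 call is close to the share over all genes and is no result about the members as a group. The median log2 fold change of the 9 members was 0.08, with a range of -0.61 to 0.27, and that of all tested genes was 0.0020. The CPM of the groups did not overlap for 4 of the 9 members (SAT1, ODC1, SRM and OAZ1), against 35.8% of all tested genes.

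**Figure D1:**
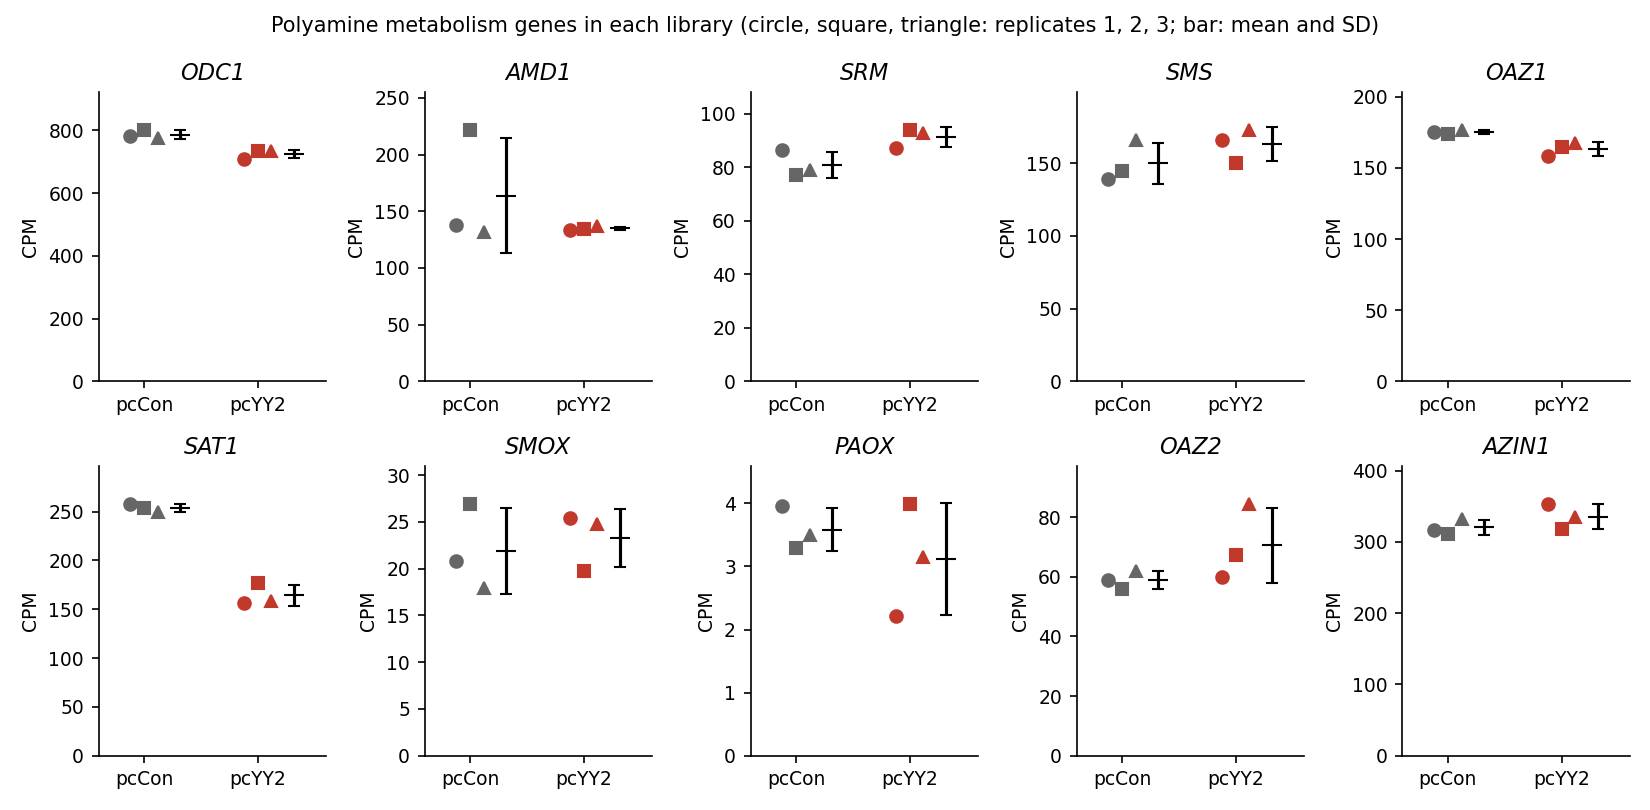
CPM, the count relative to the library total (linear axes from 0), of each of the 10 members in the 3 pcCon libraries (grey) and the 3 pcYY2 libraries (red), with the mean and SD of each group in black and replicates 1, 2 and 3 as circle, square and triangle. The SAT1 values fall from 249 to 258 CPM in pcCon to 157 to 177 CPM in pcYY2, and AMD1 in pcCon replicate 2 stands apart at 222 CPM.

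Of the catabolic genes, SAT1 had 4694, 4622 and 3778 reads in pcCon and 2403, 5231 and 2919 reads in pcYY2. Scaled to depth, its FPKM was 44.2, 43.4 and 42.7 in pcCon and 26.9, 30.3 and 27.2 in pcYY2. Every pcYY2 library lay below every pcCon library, and the deepest library, pcYY2 replicate 2, was the highest of its group. The mean FPKM was 43.4 ± 0.733 in pcCon and 28.1 ± 1.90 in pcYY2 (SD, n = 3 each), so that the coefficient of variation was 1.69% and 6.74%. The log2 fold change was -0.61 (SE 0.0602, 95% interval -0.75 to -0.47), which left 0.654 of the pcCon level (95% interval 0.593 to 0.722), with an adjusted p of 0.00428 by edgeR's quasi-likelihood test. SAT1 stood at rank 56 of the 12015 tested genes by p and at rank 289 by the size of the fall. Its fall passed the test in all 15 alternatives run, with log2 fold changes of -0.67 to -0.58. In bulk RNA, fewer cells with SAT1 mRNA and less of it in each cell cannot be told apart. Without pcYY2 replicate 2, the log2 fold change was -0.67 (adjusted p = 0.00612).

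SMOX, the spermine oxidase, had an FPKM of 4.73, 6.13 and 4.09 in pcCon and 5.80, 4.50 and 5.64 in pcYY2. The groups overlapped throughout, with a log2 fold change of 0.10 (SE 0.168, 95% interval -0.30 to 0.50, edgeR adjusted p = 0.733), and the sign turned without pcCon replicate 3 (-0.02). PAOX, the acetylpolyamine oxidase that acts after SAT1, was the lowest member, with 72, 60 and 53 reads in pcCon and 34, 118 and 58 reads in pcYY2. When genes down to an average FPKM of 0.1 were kept in the fit, PAOX had a log2 difference of -0.14 (SE 0.238, 95% interval -0.69 to 0.42, edgeR adjusted p = 0.779). RP11-108K14.8 overlaps PAOX on the same strand and held up to 73.5% as many reads as PAOX in a library, so the PAOX count is uncertain. SMOX and PAOX therefore showed no fall that passed the test, and the interval for SMOX lies above the whole interval for SAT1.

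None of the 4 genes of synthesis passed the test. ODC1, the entry enzyme, had an FPKM of 208, 214 and 206 in pcCon and 189, 195 and 195 in pcYY2. The groups did not overlap, and the difference was small, with a log2 fold change of -0.10 (SE 0.0339, 95% interval -0.18 to -0.02, edgeR adjusted p = 0.101). SRM, which makes spermidine, stood at 86.3, 77.2 and 78.9 CPM in pcCon and 87.1, 94.0 and 92.6 CPM in pcYY2. Here too the groups did not overlap, with pcCon replicate 1 and pcYY2 replicate 1 nearly equal, and the log2 fold change was 0.19 (SE 0.0639, 95% interval 0.04 to 0.34, edgeR adjusted p = 0.105). Neither passed the threshold, and ODC1 and SRM had opposite signs.

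SMS, which makes spermine, had an FPKM of 50.4, 52.3 and 60.1 in pcCon and 60.0, 54.4 and 62.7 in pcYY2. The groups overlapped at pcCon replicate 3, and the log2 fold change was 0.13 (SE 0.0843, edgeR adjusted p = 0.337), or 0.08 to 0.22 with a library left out. SMS begins 81.8 kb after the end of YY2 on chromosome X, against 1924 kb for SAT1. AMD1 had an FPKM of 8.34, 13.4 and 7.96 in pcCon and 8.09, 8.10 and 8.25 in pcYY2. Apart from pcCon replicate 2, all libraries stood within 7.96 to 8.34, and the log2 fold change of -0.27 (SE 0.191, edgeR adjusted p = 0.400) became 0.01 without that library (adjusted p = 0.912). CDK19 lies on the opposite strand across AMD1 and held up to 31.1% as many reads as AMD1. Whether the counting used the strand is not given in the sources used here, and the part of CDK19 in the AMD1 count was not tested.

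The regulators of ornithine decarboxylase also stayed under the threshold. OAZ1, the main antizyme gene, had an FPKM of 18.1, 17.9 and 18.2 in pcCon and 16.3, 17.0 and 17.2 in pcYY2. The groups did not overlap, by a small margin, with a log2 fold change of -0.09 (SE 0.0456, 95% interval -0.19 to 0.02, edgeR adjusted p = 0.257). OAZ2, the second antizyme gene, had an FPKM of 4.71, 4.48 and 4.94 in pcCon and 4.79, 5.37 and 6.75 in pcYY2. Its largest value came from pcYY2 replicate 3, with a log2 fold change of 0.27 (SE 0.124, 95% interval -0.02 to 0.57, edgeR adjusted p = 0.201). Without that library the log2 fold change was 0.12 (adjusted p = 0.417). AZIN1 had an FPKM of 34.8, 34.2 and 36.5 in pcCon and 38.7, 34.9 and 36.7 in pcYY2. The 2 groups overlapped, and the log2 fold change was 0.08 (SE 0.0503, edgeR adjusted p = 0.344), or 0.04 to 0.11 with a library left out. The 3 regulators thus had intervals that include 0.

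Levels between genes depend on the length by which counts are divided. The length behind the deposited FPKM exceeds the canonical transcript of GENCODE 44 for all 10 members and, for SAT1 (5834 bases against a span of 3054) and OAZ1 (9724 against 3982), the whole gene. Counts were therefore also divided by the canonical transcript, which gives CPM per kilobase of transcript. On that scale the order in pcCon was ODC1 (318), SAT1 (242), OAZ1 (153), SMS (88.0), AZIN1 (76.4), SRM (64.1), AMD1 (47.9), OAZ2 (30.5), SMOX (10.1) and PAOX, whose libraries ran from 1.80 to 2.16. The order in pcYY2 was the same, with ODC1 at 293, SAT1 at 156 and OAZ1 at 142. Neighbours in this order had separate ranges, except SRM and AMD1 in pcCon and AMD1 and OAZ2 in pcYY2. The distance between SAT1 and OAZ1 narrowed from a ratio of means of 1.58 in pcCon to 1.10 in pcYY2.

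ODC1 was first and PAOX last under each of the 3 lengths, but SAT1 had rank 2 in pcCon by the canonical transcript and rank 3 by the authors' length, behind ODC1 and SMS. In pcYY2, SAT1 kept rank 2 by the canonical transcript but had rank 4 by the authors' length. By the union of exons, it had rank 2 in pcCon and rank 3 in pcYY2. OAZ1 had rank 3 by the canonical transcript and rank 6 by the authors' length. The fold change of a gene is not touched by this choice, since the length is the same in every library.

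**Figure D2:**
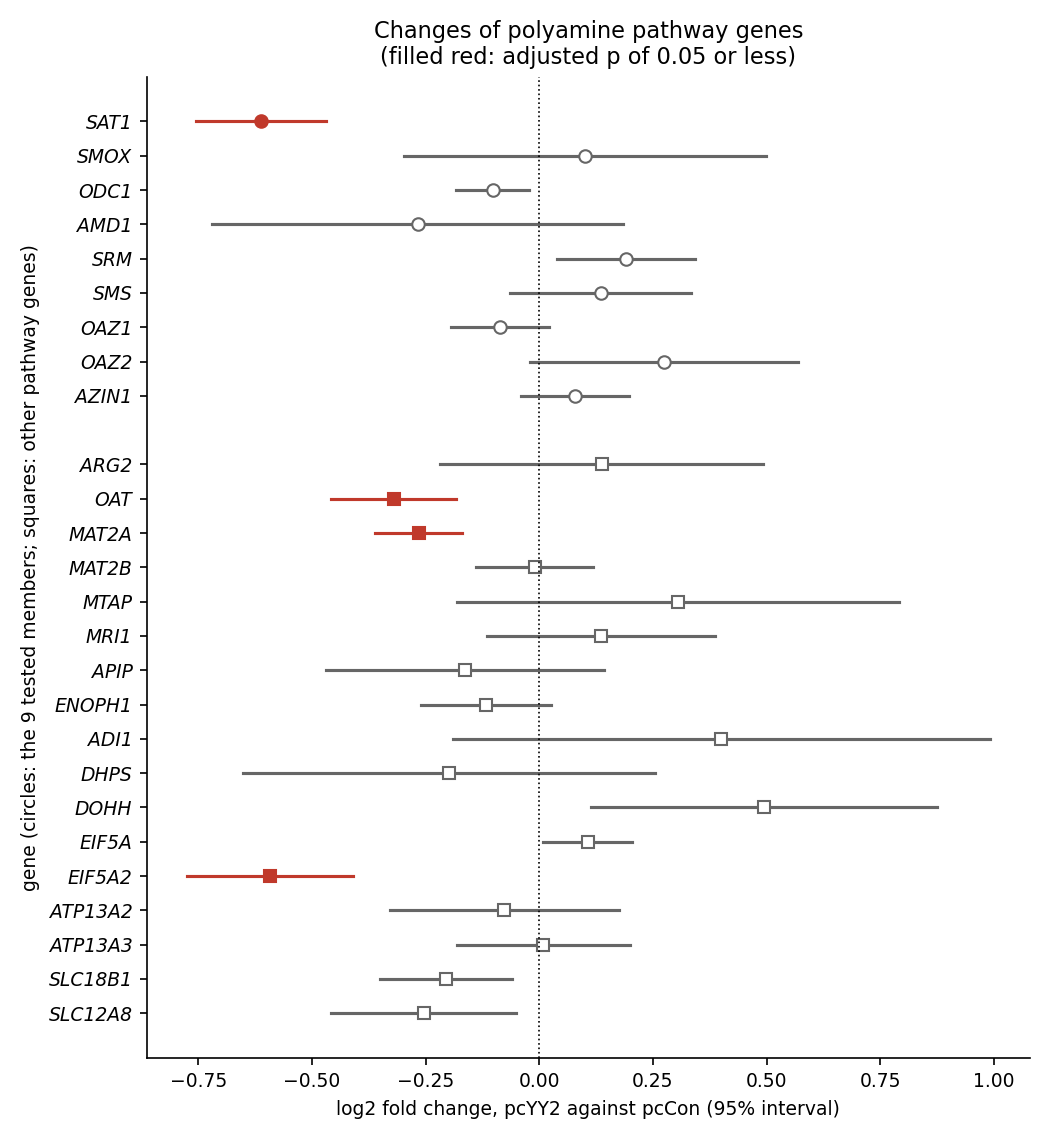
Log2 fold change of pcYY2 against pcCon with its 95% interval, for the 9 tested members (circles) and the 17 tested further genes of the pathway (squares), with genes at an adjusted p of 0.05 or less filled in red. SAT1, OAT, MAT2A and EIF5A2 are called, each lower in pcYY2.

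Since a ratio of 2 genes within a library does not depend on the scaling between libraries, SAT1 was set against each other member. All 9 ratios were lower in pcYY2, at 54.6% (OAZ2) to 76.4% (AMD1) of the pcCon ratio, a direction they share because SAT1 is in each. The ratios that follow are of CPM per kilobase of canonical transcript, and the percentages do not depend on the length used. SAT1 to ODC1 was 0.778, 0.745 and 0.759 in pcCon and 0.522, 0.569 and 0.511 in pcYY2, or 70.1% of the pcCon ratio. SAT1 to SRM was 3.59, 3.94 and 3.79 in pcCon and 2.16, 2.26 and 2.06 in pcYY2, or 57.2%. SAT1 to SMOX was 25.6, 19.4 and 28.6 in pcCon and 12.7, 18.5 and 13.2 in pcYY2, with the groups barely apart. In 7 of the 9 ratios the groups did not overlap. The exact two-sided permutation test gave p = 0.1 for these 7, the smallest that 3 against 3 samples allow (0.129 after Benjamini-Hochberg adjustment over the 9 ratios), p = 0.2 for PAOX and p = 0.4 for AMD1, so that this design cannot reach the threshold by that test.

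**Figure D3:**
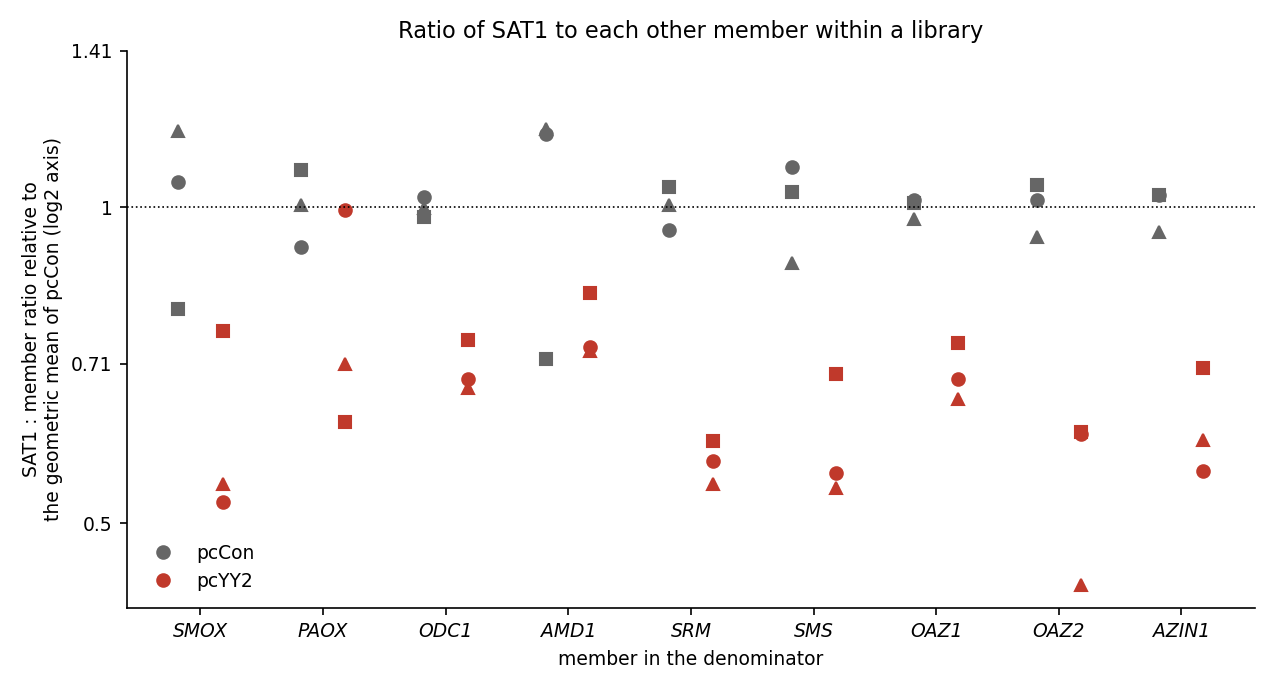
Ratio of SAT1 FPKM to the FPKM of each other member in each library, divided by the geometric mean of the pcCon libraries (log2 axis), with pcCon in grey, pcYY2 in red and replicates 1, 2 and 3 as circle, square and triangle. The groups are apart for 7 members, and overlap for PAOX and for AMD1, whose pcCon replicate 2 lies low.

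The wider pathway was described from a list of 25 further genes. Of these, 17 were tested, 3 fell (OAT, MAT2A and EIF5A2) and none rose at an adjusted p of 0.05 or less, with a count of 7 at an unadjusted p under 0.05 in either direction, against 3467 of all 12015 tested genes. The 3 calls are 17.6% of the 17, against 9.37% of all tested genes called in either direction and 4.85% called lower. With 17 genes this is no result about the list as a group. OAT and MAT2A each lost their call when certain single libraries were left out, and EIF5A2 did not. The median log2 fold change was -0.08, from -0.59 to 0.49, and the groups did not overlap for 7 of the 17, where 35.8% of all tested genes had such groups. The close relatives of the members (SAT2, SATL1, OAZ3 and AZIN2) were all under the filter. SAT2, the relative of SAT1, had a mean FPKM of 0.951 ± 0.122 in pcCon and 0.867 ± 0.122 in pcYY2 (SD, n = 3 each), and SATL1 had at most 2 reads in a library.

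In the list for ornithine and putrescine supply, 2 of 4 genes were tested and 1 fell. OAT, the mitochondrial ornithine aminotransferase, which turns ornithine over outside the polyamine route, stood at 176, 194 and 196 CPM in pcCon and 153, 145 and 152 CPM in pcYY2. The groups did not overlap, with a log2 fold change of -0.32 (SE 0.0579, edgeR adjusted p = 0.0232). That call was lost without pcCon replicate 2 (adjusted p = 0.0856), pcCon replicate 3 (adjusted p = 0.0739), pcYY2 replicate 2 (adjusted p = 0.0595) or pcYY2 replicate 3 (adjusted p = 0.0688), and under the replicate block (adjusted p = 0.0815), while the log2 fold change in these fits was -0.33 to -0.29. The estimate for ARG2, the mitochondrial arginase, was 0.14 (edgeR adjusted p = 0.587), and ARG1, the liver arginase, had no read in any library, against a floor of 3 counts.

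Of the genes that make S-adenosylmethionine or salvage methylthioadenosine, the byproduct of spermidine and spermine synthesis, 7 of 8 were tested and 1 fell. MAT2A, the catalytic subunit of the methionine adenosyltransferase outside the liver, stood at 498, 511 and 495 CPM in pcCon and 416, 426 and 398 CPM in pcYY2. Both groups were narrow and apart, with a log2 fold change of -0.27 (SE 0.0407, edgeR adjusted p = 0.0149). Its call was lost without pcCon replicate 1 (adjusted p = 0.0524), pcCon replicate 2 (adjusted p = 0.0652), pcCon replicate 3 (adjusted p = 0.0522) or pcYY2 replicate 3 (adjusted p = 0.0503), and under the replicate block (adjusted p = 0.0602), with log2 fold changes of -0.27 to -0.24 in these fits. For MAT2B, its regulatory partner, the estimate was -0.01 on the log2 scale (edgeR adjusted p = 0.924). The salvage genes ENOPH1 (-0.12), ADI1 (0.40) and MTAP (0.31) had adjusted p-values of 0.249, 0.335 and 0.371.

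Hypusine is an amino acid that DHPS and DOHH build from spermidine on the translation factor eIF5A, and 1 of the 4 genes of this group, all tested, fell. EIF5A2, the less widely expressed of the eIF5A genes, had 467, 447 and 413 reads in pcCon and 260, 499 and 312 reads in pcYY2, which correspond to 25.6, 24.5 and 27.2 CPM and to 17.0, 16.9 and 17.0 CPM. The groups lay apart, and the log2 fold change of -0.59 (SE 0.0769, 95% interval -0.77 to -0.41, edgeR adjusted p = 0.00918) was close in size to that of SAT1. Its call held with each library left out (adjusted p = 0.0296 to 0.0394) and was lost under the replicate block (adjusted p = 0.0589). EIF5A, which had far more reads than EIF5A2, differed by 0.11 on the log2 scale (edgeR adjusted p = 0.146), and the intervals of the 2 genes did not meet. The pseudogene EIF5AP4 held up to 38.4% as many reads as EIF5A, so the EIF5A count is uncertain. DOHH, the hydroxylase of the last step, stood at 15.5, 11.1 and 12.6 CPM in pcCon and 19.5, 15.2 and 20.0 CPM in pcYY2, with overlap and a log2 fold change of 0.49 (SE 0.161, edgeR adjusted p = 0.0976). DHPS, the enzyme of the first step, gave an estimate of -0.20 (edgeR adjusted p = 0.535).

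None of the transport genes passed the edgeR test, for which 4 of 5 could be tested. SLC18B1, a vesicular polyamine transporter, gave a log2 estimate of -0.20 (SE 0.0610, edgeR adjusted p = 0.0783), and SLC12A8 one of -0.25 (SE 0.0861, adjusted p = 0.107), in both cases with groups that did not overlap. SLC18B1 was called lower by limma on log2(FPKM + 1) and on log2(FPKM + 0.1), with adjusted p = 0.0411 and 0.0422. For ATP13A2, which exports polyamines from the lysosome, the log2 estimate was -0.08 (edgeR adjusted p = 0.672). In the windows of OAT, MAT2A and EIF5A2 around their RefSeq starts, CGCCATNTT and CCATNTT did not occur. Of the unplanned motifs, CCAAT occurred in all 3 (34.6% of all windows) and CCAT in that of EIF5A2 alone (78.4% of all windows).

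By Pearson's r of log2 CPM over the 6 libraries, the tested genes whose pattern was most like that of SAT1 were PFDN2 (0.999), NUP210 (0.998), DOC2B (0.998), SPRY4 (0.997) and CYFIP2 (0.996). Each had a lower CPM in every pcYY2 library than in any pcCon library, with log2 fold changes of -0.33, -0.42, -0.63, -0.83 and -0.40. The 6 libraries form the 2 groups of the comparison, so a gene with a like step between them has a high r, and 330 of the 12014 other tested genes had an r of at least 0.95.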

How the data were processed

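RNA-Seq of 6 HCT116 samples was used, 3 with pcCon and 3 with pcYY2, with groups and replicate numbers from the sample labels. According to the methods, the authors removed rRNA, adapter and low-quality reads, mapped the rest to GRCh38 with Tophat and obtained FPKM with Cufflinks, and their processing notes also name Bowtie2 and HTSeq. The deposited counts are whole reads per gene without normalization. In the deposited FPKM, the authors divided each count by a fixed gene length and the library total, which held within 0.00086% for the 10859 genes with at least 100 counts in every library. Whether counting used the strand is not given in the sources used here. The authors' comparison by Cuffdiff was not used.

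Genes whose FPKM averaged 1 or more were tested with edgeR 4.0.16 (quasi-likelihood, TMM, Benjamini-Hochberg adjustment over 12015 genes, calls at 0.05, R 4.3.3). The design assumed no pairing. The SE is the absolute log2 fold change over the square root of F, and every fold change is pcYY2 against pcCon. Limma 3.58.1, DESeq2 1.42.0, other scalings and filters, a replicate block and each library left out were alternatives. The scripts were tested on simulated data. GENCODE 44 gave strands and the lengths of canonical transcripts and of the union of exons. The positions and spans of genes were those deposited with the counts, and RefSeq (GRCh38.p14) gave promoters. Named were every member, the pathway genes called and up to 3 further of each list by p, YY2, the 5 genes most like SAT1, and overlapping genes or pseudogenes with over 10 percent of a member's reads. MAT2B, ARG1, SAT2 and SATL1 and the markers KRT8 and KRT19 were named after their values were seen. The members and lists were chosen with earlier results of these data known.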

Additional observations from a re-analysis of the deposited data

How the results depend on the processing

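SAT1 kept its direction and its call in all 15 alternatives, with log2 fold changes of -0.67 to -0.58 and adjusted p-values of 7.84e-13 (DESeq2) to 0.0409 (replicate block), and the counts of members called (1 lower, 0 higher) were the same in each. The signs turned for SMOX without pcCon replicate 3 (-0.0207, in a range of -0.0207 to 0.277 over the 6 libraries left out in turn) and for AMD1 without pcCon replicate 2 (0.0134, in a range of -0.401 to 0.0134), neither of which was called. Of the further pathway genes, 3 were called lower, 4 under both limma fits (SLC18B1 added), 0 under the replicate block and 1 to 3 when a library was left out. Deviations of same-numbered libraries correlated at -0.0246 to 0.000471, and those of differently numbered libraries at -0.034 to 0.0529. With 3 libraries in each group this cannot decide whether the numbers pair the samples, which the labels do not say. The block lowered all calls from 1126 to 101. Leaving out a library gave 285 to 821 calls, with fewer samples in each fit. The cause of the other changes was not tested. Genes near 3 counts, such as SATL1, are beyond this depth.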
